A study of Homo sapiens with 4 samples.

Results

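The genes of the DNA replication machinery were followed in mRNA libraries of SU-DHL-2 cells, an established line of human diffuse large B-cell lymphoma. The set holds 51 genes, chosen by name as parts of the origin and fork apparatus, with earlier results of these data known. They were matched to the rows of a count table of 61267 genes. All 51 were present, and all passed the filter on low counts that left 18368 genes to test. The treated group received 10 µM Spautin-1 for 36 h, a compound known to inhibit USP10 and USP13, which remove ubiquitin from proteins. The control group received vehicle, whose dose and time the labels do not give. Each group held 2 libraries of wild-type cells of this single line, and the labels do not say whether the replicates were separate cultures, so p-values reflect only the spread among these 4 libraries, and that spread may be technical. The study's title names USP13, the GTPase RAN and ferroptosis.

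Replication begins when the origin recognition complex, with CDC6 and CDT1, loads the ring of MCM2 to MCM7 onto DNA in G1, a step that geminin blocks later in the cycle. In S phase the kinase CDC7 with its partner DBF4 helps CDC45 and the GINS complex join the ring, which makes the active helicase, called CMG. Polymerase alpha with primase lays primers, polymerases epsilon and delta extend them, and the sliding clamp PCNA, loaded by RFC, holds polymerases and partner enzymes on DNA. Many of these genes are textbook targets of the E2F transcription factors, which drive the entry into S phase.

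Total counts ran from 34115420 to 38362526 per library. Spautin-1 libraries held 7.63% and 8.34% of their counts on mitochondrial genes, against 4.94% and 5.25% in vehicle libraries, and the part of this difference in the results was not tested beyond a fit without those genes, which left the calls of replication genes as they were. All 9 markers of B cells passed the filter, with summed levels of 649 and 652 TPM (a level corrected for gene length) in Spautin-1 and 466 and 529.9 TPM in vehicle. Markers of T cells summed to at most 0.417 TPM and those of myeloid cells to at most 1.06 TPM in any library. The epithelial list summed to 55.5 to 61.8 TPM, nearly all from EPCAM, and the erythroid list to 69.9 and 70.4 TPM in Spautin-1 and 58.7 and 65.7 TPM in vehicle.

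Of the 51 replication genes, 24 were lower in Spautin-1 and 0 were higher (edgeR quasi-likelihood test, two-sided, Benjamini-Hochberg adjusted p under 0.05 over all genes tested). Over all 18368 genes, 10.5% were called lower and 11.5% higher. Where the mean level reached 5 CPM (counts scaled to library size, with TMM factors), 14.9% of genes were lower, and 23 of the 48 replication genes above that level were. Without the adjustment, 30 replication genes were lower and 0 higher at p under 0.05, against 17.3% lower and 17.7% higher over all genes tested. DESeq2 called 23 lower and limma-voom 24, against 9.97% and 10.2% of all genes tested, and neither called any replication gene higher, against 10.6% and 11.4%. The median log2 fold change of the replication genes was -0.36, against -0.01 for all genes tested, and 46 of 51 had a value below 0. Both Spautin-1 libraries lay below both vehicle libraries in 37 of the 51 genes, a pattern that 30.6% of all genes tested showed, and above them in 2, a pattern that 30.8% showed. Changes were mostly modest: among the called genes the log2 fold change ran from -0.32 to -1.45. In bulk RNA, fewer cells in S phase and less RNA per cell cannot be told apart. With 2 libraries in each group, p = 0.333 is the smallest that an exact permutation test allows.

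The calls were spread unevenly over the machinery, though the sizes of change overlapped. Log2 fold changes ran from -1.45 to -0.32 among the 24 called genes and from -0.42 to 0.21 among the 27 not called. Of those 27, 22 lay below 0. All 6 genes of MCM2 to MCM7 were lower, as were 4 of the 5 genes for CDC45 and GINS, so that 10 of 11 subunits of the CMG helicase were called. Of those 11, 2 were called without Spautin-1 replicate 1 and 4 without Spautin-1 replicate 2. The catalytic subunits of polymerases alpha, epsilon and delta were lower in 3 of 3 cases, whereas 0 of the 6 other polymerase and primase genes of the set passed. PCNA was lower, and 0 of the 5 genes of its loader RFC were. The origin recognition genes of the set were called lower in 0 of 5 cases, RPA genes in 0 of 3, and both genes of the chromatin assembly factor were called. Over all genes tested 10.5% were called lower, so a count of 0 in classes this small does not show that they were spared. Called genes tended to stand at higher levels, with a median of 87.9 CPM against 35.8 CPM for those not called, and higher counts give smaller errors.

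**Figure D1:**
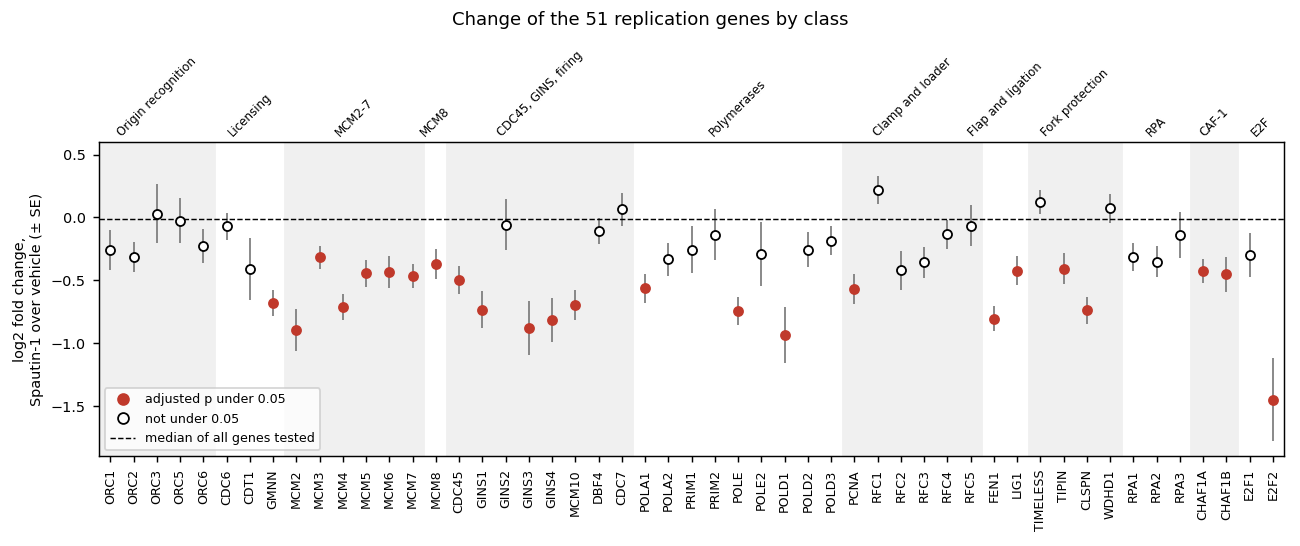
Log2 fold change of Spautin-1 over vehicle with its SE for each of the 51 replication genes, grouped by role, with filled red points for an adjusted p under 0.05 and open points for the rest. The 6 MCM2 to MCM7 genes are all filled, the 5 origin recognition genes are all open, and the dashed line marks the median of all genes tested at -0.01.

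Leaving out a library changed how many of the genes passed. Without Spautin-1 replicate 1, 9 were lower, and without Spautin-1 replicate 2 also 9, where 4.24% and 2.97% of all genes tested were, with the single treated library then assumed to vary like the vehicle libraries. Without vehicle replicate 1 and without vehicle replicate 2, 32 and 29 were lower, where 15.3% and 13.5% of all genes tested were. Replication genes called higher numbered 0 without Spautin-1 replicate 1 and 0 without Spautin-1 replicate 2, against 5.24% and 4.58% of all genes tested. They numbered 1 without vehicle replicate 1 and 0 without vehicle replicate 2, against 16.7% and 14.7%. Over 15 alternative settings, 6 genes were lower in every setting: GMNN, MCM2, MCM4, POLE, FEN1 and CLSPN. The median of the 51 genes stayed between -0.40 and -0.33 in all of them. Vehicle libraries differed from each other by at least 1.5-fold in 3 of the genes, CDT1, MCM2 and POLD1, each higher in replicate 2. The Spautin-1 libraries did so in 1, E2F2.

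Since many of these genes fell together, their promoters are given here. RefSeq promoters of GRCh38.p14, each holding 250 bases before and 50 after an annotated start, were matched to 45 of the 51 genes, leaving MCM4, MCM5, GINS4, POLD3, RPA2 and RPA3. A match to the E2F motif, searched on both strands as TTTCCCGC, TTTGGCGC, TTTCGCGC or TTTGCCGC, was found for 24 of 45 replication genes (53.3%). Among the 11169 tested genes with a promoter in the table, 6.54% held one. A gene with several starts counted once if any of them matched, and with single-start genes alone the shares were 51.4% of 37 replication genes and 5.43% of 8102 tested genes. The motif was present for 15 of 21 genes called lower and for 9 of 24 not called. Over all tested genes with a promoter, the median log2 fold change was -0.06 for the 730 with a match and 0.01 for the 10439 without. Whether the motif bears on the change was not tested. The CCAAT box (CCAAT) was found in 60.0% of the replication genes and 42.8% of tested genes, the E-box (CACGTG) in 17.8% and 12.2%, and the cell-cycle homology region (TTTGAA) in 2.22% and 13.9%. A match is a string in the sequence and not a measured binding site.

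The stretches around the E2F matches below show called genes beside uncalled partners from the same complex or step. Each runs 5′ to 3′ in the direction of the gene, with matched letters in capitals and up to 20 bases on either side. The 4 MCM genes and the checkpoint mediator CLSPN come first, as genes called lower.
MCM2 (chr3:127598393-127598444, plus strand): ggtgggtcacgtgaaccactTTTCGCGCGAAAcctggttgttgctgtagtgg
MCM3 (chr6:52284719-52284766, minus strand): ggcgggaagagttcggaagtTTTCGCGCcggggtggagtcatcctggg
MCM6 (chr2:135876502-135876553, minus strand): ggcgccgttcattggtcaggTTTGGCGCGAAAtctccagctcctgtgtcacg
MCM7 (chr7:100101379-100101426, minus strand): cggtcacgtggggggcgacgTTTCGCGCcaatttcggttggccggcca
CLSPN (chr1:35769956-35770003, minus strand): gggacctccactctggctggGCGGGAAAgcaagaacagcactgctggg
Next are pairs in which the gene called lower precedes a gene that was not called: GINS3 with GINS2, POLE with POLE2, PCNA with RFC3, and GMNN with CDC6.
GINS3 (chr16:58392446-58392493, plus strand): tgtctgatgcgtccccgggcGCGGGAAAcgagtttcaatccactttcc
GINS2 (chr16:85688958-85689005, minus strand): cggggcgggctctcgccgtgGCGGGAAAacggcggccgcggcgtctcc
POLE (chr12:132687333-132687380, minus strand): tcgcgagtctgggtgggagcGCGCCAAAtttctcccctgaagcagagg
POLE2 (chr14:49688192-49688239, minus strand): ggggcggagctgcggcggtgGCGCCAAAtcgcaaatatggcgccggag
PCNA (chr20:5126654-5126701, minus strand): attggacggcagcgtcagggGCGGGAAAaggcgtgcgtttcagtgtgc
RFC3 (chr13:33818074-33818121, plus strand): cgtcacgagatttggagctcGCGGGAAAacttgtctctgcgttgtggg
GMNN (chr6:24775313-24775360, plus strand): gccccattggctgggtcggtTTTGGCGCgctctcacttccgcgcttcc
CDC6 (chr17:40287866-40287913, plus strand): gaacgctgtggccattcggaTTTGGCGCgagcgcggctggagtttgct
These pairs were chosen to show that genes not called can hold a match too. Other matches are not shown, among them a further match each in MCM3 and MCM7 and a further overlapping pair in MCM6. In MCM2 and MCM6 a pair of matches on opposite strands overlaps, which gives the longer run of capitals. The first matched base lies 4 bases before the annotated start in MCM3, 9 before it in MCM7, 5 before it in CLSPN and GINS3, and 2 bases after it in MCM2.

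**Figure D2:**
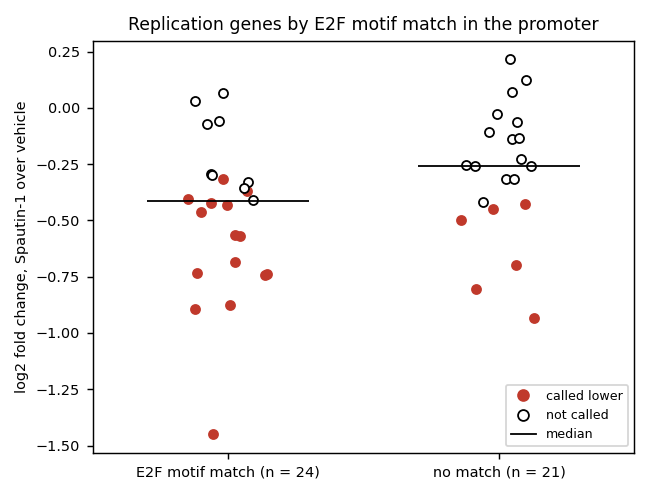
Log2 fold change of Spautin-1 over vehicle for the 45 replication genes with a promoter in the table, split into 24 with an E2F motif match on the left and 21 without on the right, with filled red points for genes called lower and a line at each median. The medians are -0.42 with a match and -0.26 without, and uncalled genes occur on both sides. Over all tested genes with a promoter, not drawn here, they are -0.06 and 0.01.

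Origin recognition is carried by the ORC subunits, of which 5 are in the set of 51 genes. ORC1, the subunit whose level varies over the cell cycle, stood at 17.4 and 14.3 CPM in Spautin-1 and at 19.9 and 18.0 CPM in vehicle and did not pass (log2 fold change and SE, -0.26 ± 0.16; edgeR adjusted p = 0.282). ORC2 had 41.4 and 39.9 CPM in Spautin-1, against 51.2 and 49.9 CPM in vehicle. Its groups did not overlap, yet it missed the threshold at -0.31 ± 0.12 (edgeR adjusted p = 0.0799) and passed it without either vehicle library, with the GC offset and with the length offset. ORC3 showed overlapping groups at 4.16 and 4.70 CPM in Spautin-1 and 4.69 and 3.99 CPM in vehicle, a log2 fold change of 0.03 ± 0.23 whose sign turned under 4 alternatives. ORC5 (-0.03 ± 0.18) and ORC6 (-0.23 ± 0.14) did not pass either, except that ORC6 was called without vehicle replicate 2. At an unadjusted p under 0.05 only ORC2 of the 5 was lower, where 17.3% of all genes tested were. Neither DESeq2 nor limma-voom called any of the 5. ORC4, a subunit outside the set, was at 18.1 and 15.6 CPM in Spautin-1 and at 13.3 and 13.2 CPM in vehicle. Its groups did not overlap, with Spautin-1 the higher, and it did not pass (0.35 ± 0.16; edgeR adjusted p = 0.135).

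Of the 3 licensing factors, 1 was called. Geminin (GMNN, chromosome 6, 24774931 to 24786099, GRCh38), which binds and inhibits CDT1, was at 97.2 and 96.4 CPM in Spautin-1 and at 157 and 154 CPM in vehicle. Both treated libraries lay well below both controls, and GMNN fell 1.61-fold (log2 fold change -0.68 ± 0.10; edgeR adjusted p = 0.00076). CDC6, the ATPase that helps load the MCM ring, did not pass, with 114 and 107 CPM in Spautin-1 and 112 and 119.6 CPM in vehicle (-0.07 ± 0.11; edgeR adjusted p = 0.692). CDT1, which brings the MCM ring to origins, had 17.6 and 18.7 CPM in Spautin-1 but 16.0 and 32.2 CPM in the vehicle libraries. Its value therefore hung on the control used: the log2 fold change of -0.41 ± 0.25 (edgeR adjusted p = 0.27) became -0.83 and was called without vehicle replicate 1, and was 0.19 without vehicle replicate 2. The ratio of CDT1 to GMNN counts was 0.182 and 0.194 in Spautin-1 and 0.102 and 0.209 in vehicle, so the groups overlapped.

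The MCM2 to MCM7 ring is the core of the replicative helicase, and its 6 genes had a median log2 fold change of -0.45. MCM4 (chromosome 8, 47960185 to 47978160) was at 147 and 157 CPM in Spautin-1, against 257 and 240.5 CPM in vehicle. The groups were far apart relative to the spread in each, and MCM4 fell 1.64-fold (-0.71 ± 0.10; edgeR adjusted p = 0.0005). MCM2 (chromosome 3, 127598410 to 127622436) had 268 and 287 CPM in Spautin-1 and 395 and 636 CPM in vehicle. Its fall of 1.86-fold (-0.89 ± 0.17; edgeR adjusted p = 0.0028) was -1.20 without vehicle replicate 1 and -0.51 without vehicle replicate 2, called both times. MCM7 (chromosome 7, 100092233 to 100101940) stood at 211 and 216 CPM in Spautin-1 and at 296 and 291 CPM in vehicle, a fall of 1.38-fold (edgeR adjusted p = 0.00496). MCM5 had 126 and 132 CPM in Spautin-1 and 163 and 189 CPM in vehicle, and fell 1.36-fold. MCM6 had 35.5 and 40.6 CPM in Spautin-1 and 51.02 and 51.7 CPM in vehicle, and fell 1.35-fold. MCM3 changed least of the 6, with 517 and 559 CPM in Spautin-1 and 671 and 669 CPM in vehicle, a fall of 1.25-fold (edgeR adjusted p between 0.0133 and 0.0272 for MCM3, MCM5 and MCM6). In each of the 6 genes the groups did not overlap. Without Spautin-1 replicate 1 or without Spautin-1 replicate 2, MCM2 and MCM4 were still called, and MCM3, MCM5, MCM6 and MCM7 were not (edgeR adjusted p of 0.108 to 0.35 and of 0.0962 to 0.144).

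Although the ring holds its 6 subunits in equal number, the mRNAs did not stand at equal levels per length. In Spautin-1 cells MCM3 had the highest level at 393 ± 28.8 TPM (mean ± SD, n = 2) and MCM6 the lowest at 24.5 ± 2.71 TPM. In vehicle cells MCM3 was at 535 ± 18.2 TPM and MCM6 at 36.2 ± 0.786 TPM. MCM2 and MCM7 came after MCM3 in both groups, at 157 ± 10.0 and 115 ± 3.82 TPM in Spautin-1 and at 317 ± 94.9 and 172 ± 7.7 TPM in vehicle. MCM4 and MCM5 were neighbours, at 41.1 ± 2.54 and 47.4 ± 2.29 TPM in Spautin-1 and at 73.6 ± 5.83 and 70.4 ± 5.26 TPM in vehicle, which in vehicle differed by less than their spread. TPM values use the length of all annotated exons of a gene, so a gene with long rare exons reads low. They are set beside each other here between genes, while changes between groups are given on the CPM scale. MCM8, a related helicase with roles in recombination and outside the ring, was at 53.1 and 55.8 CPM in Spautin-1 and 75.0 and 65.8 CPM in vehicle. It fell 1.29-fold (edgeR adjusted p = 0.0452), the narrowest call of the set, lost without Spautin-1 replicate 1 (0.349) or Spautin-1 replicate 2 (0.254), and 33.3% of its exonic bases are shared with another gene on the same strand.

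**Figure D3:**
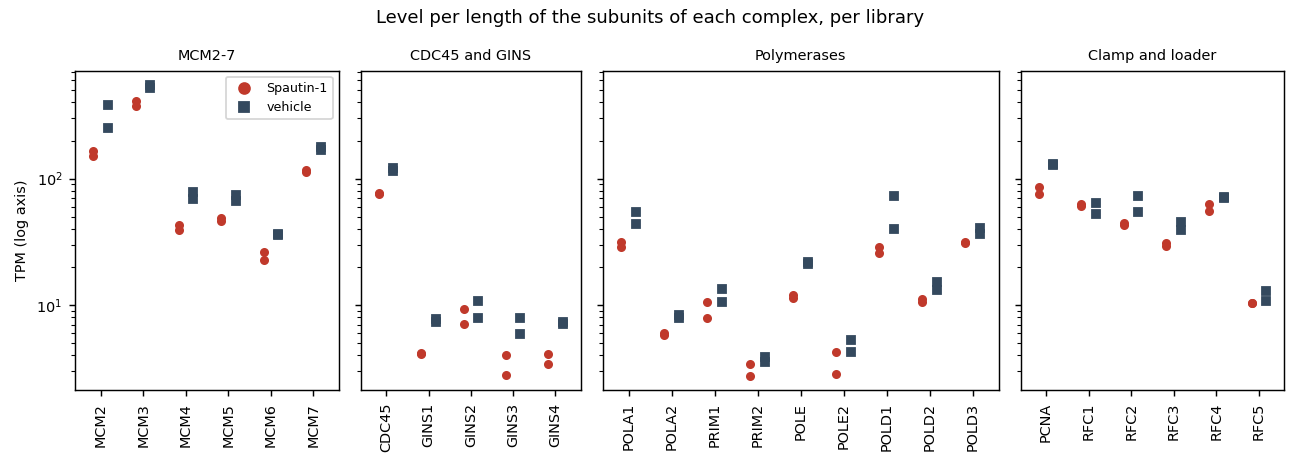
Level in TPM on a log axis in each library, Spautin-1 (red circles) left of vehicle (dark squares), for the subunits of MCM2 to MCM7, CDC45 with GINS, the polymerases, and PCNA with its loader RFC. MCM3 stands highest in the ring and MCM6 lowest, CDC45 stands far above the GINS genes, and the vehicle points of MCM2 and POLD1 lie wide apart.

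CDC45 and the 4 GINS proteins complete the helicase. CDC45 (chromosome 22, 19479457 to 19520612) was at 86.5 and 84.0 CPM in Spautin-1 and at 114 and 127 CPM in vehicle, and fell 1.41-fold (-0.50 ± 0.11; edgeR adjusted p = 0.0076). GINS1 had 12.5 and 12.4 CPM in Spautin-1 and 20.7 and 20.6 CPM in vehicle, the replicates of each group lying close together, and fell 1.66-fold (edgeR adjusted p = 0.00452). GINS4 had 7.04 and 8.28 CPM in Spautin-1 and 13.4 and 13.5 CPM in vehicle, a fall of 1.76-fold. GINS3 had 5.44 and 7.62 CPM in Spautin-1 and 13.5 and 10.5 CPM in vehicle, a fall of 1.84-fold (edgeR adjusted p = 0.00621 for GINS4 and 0.0122 for GINS3). GINS2 was the exception, with overlapping groups of 11.4 and 8.49 CPM in Spautin-1 and 11.7 and 8.98 CPM in vehicle (-0.06 ± 0.20; edgeR adjusted p = 0.877). The ratio of GINS1 to GINS2 counts was 1.10 and 1.46 in Spautin-1 and 1.77 and 2.29 in vehicle. This ratio sets a called gene against the only GINS gene not called, and does not stand for other GINS pairs. Per length, CDC45 stood at 76.3 ± 0.22 TPM in Spautin-1 and 117 ± 5.26 TPM in vehicle, while the 4 GINS genes lay between 2.80 and 9.28 TPM in Spautin-1 and between 5.86 and 10.8 TPM in vehicle libraries. Without Spautin-1 replicate 1 the calls of CDC45, GINS1, GINS3 and GINS4 were lost, and without Spautin-1 replicate 2 those of CDC45 and GINS1.

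Among the factors that fire origins, MCM10 was called and the kinase pair was not. MCM10, which helps activate the assembled helicase, was at 50.9 and 47.7 CPM in Spautin-1 and at 84.5 and 75.4 CPM in vehicle. It fell 1.62-fold (-0.70 ± 0.12; edgeR adjusted p = 0.00162), a call lost without Spautin-1 replicate 2. DBF4, the activator of CDC7, did not pass with 118.8 and 118.5 CPM in Spautin-1 and 127 and 129 CPM in vehicle (-0.11 ± 0.10; edgeR adjusted p = 0.508). The kinase CDC7 had overlapping groups, 27.0 and 27.9 CPM in Spautin-1 and 27.2 and 25.4 CPM in vehicle (0.06 ± 0.13; edgeR adjusted p = 0.776). In counts, the ratio of MCM10 to CDC7 was 1.88 and 1.71 in Spautin-1, against 3.11 and 2.97 in vehicle.

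Of the 9 polymerase and primase genes in the set, the 3 called were those for subunits that carry the DNA-synthesising active site. Outside the set the accessory subunit genes POLE3 and POLD4 were called, POLE3 lower and POLD4 higher, and POLE4 was not. POLE (chromosome 12, 132623753 to 132687376), the leading-strand enzyme, was at 53.2 and 55.3 CPM in Spautin-1 and at 90.2 and 91.6 CPM in vehicle, and fell 1.67-fold (-0.74 ± 0.11; edgeR adjusted p = 0.000724). POLA1, the catalytic subunit of polymerase alpha, had 187 and 167 CPM in Spautin-1 and 283 and 239.7 CPM in vehicle, and fell 1.48-fold (edgeR adjusted p = 0.00414). POLD1, that of polymerase delta, had 48.1 and 52.5 CPM in Spautin-1 but 65.6 and 126 CPM in vehicle, so the size of its fall rested on the controls. The log2 fold change of POLD1, -0.93 ± 0.22 (edgeR adjusted p = 0.0112), was -1.33 without vehicle replicate 1 and -0.38 without vehicle replicate 2, and it was not called by DESeq2. The call of POLD1 was also lost without Spautin-1 replicate 1 (edgeR adjusted p = 0.0565), and that of POLA1 without Spautin-1 replicate 2 (edgeR adjusted p = 0.107).

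None of the 6 accessory and primase genes of the set was called by edgeR, DESeq2 or limma-voom. At an unadjusted p under 0.05, 1 of the 6, POLA2, was lower, near the share of 17.3% over all genes tested. POLA2 stood at 26.3 and 26.9 CPM in Spautin-1 and 31.7 and 35.2 CPM in vehicle (-0.33 ± 0.13; edgeR adjusted p = 0.0925). All 6 had a log2 fold change below 0, with a median of -0.26 and a range of -0.33 to -0.14, against a median of -0.74 for the catalytic subunits. The primase genes PRIM1 and PRIM2, at -0.26 ± 0.18 and -0.14 ± 0.20, and POLE2, at -0.29 ± 0.25, were low genes of 3.20 to 14.9 CPM with overlapping groups. PRIM2, the nearest to 0 of the 9 polymerase and primase genes, had 7.28 and 5.80 CPM in Spautin-1 and 7.31 and 7.09 CPM in vehicle. POLD2 and POLD3, accessory subunits of polymerase delta, gave -0.26 ± 0.14 and -0.18 ± 0.11 without overlap between groups. POLA2 and POLD2 were called without vehicle replicate 1. The ratio of POLE to POLE2 counts was 16.6 and 11.9 in Spautin-1 and 17.3 and 20.8 in vehicle, and that of POLD1 to POLD2 was 1.42 and 1.68 in Spautin-1 and 1.86 and 2.97 in vehicle. Neither ratio overlapped between groups. The ratio of POLA1 to POLA2 was 7.10 and 6.22 in Spautin-1 and 8.95 and 6.81 in vehicle, which overlapped. POLA2, PRIM1 and POLD1 share exonic bases with other genes on the same strand (16.8%, 10.9% and 8.63% of their length for the largest overlap). What this means for their counts was not tested.

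PCNA (chromosome 20, 5114953 to 5126626), the sliding clamp, was at 40.2 and 44.3 CPM in Spautin-1 and at 61.9 and 63.6 CPM in vehicle. The groups were well apart and PCNA fell 1.49-fold (-0.57 ± 0.12; edgeR adjusted p = 0.00556), a call lost without Spautin-1 replicate 1 (0.14) or Spautin-1 replicate 2 (0.0682). None of the 5 genes of its loader was called by edgeR, DESeq2 or limma-voom. RFC2 and RFC3 were lower at an unadjusted p under 0.05, as were 17.3% of all genes tested. RFC1, the large subunit, had 161 and 149.9 CPM in Spautin-1 and 144 and 124 CPM in vehicle. Its log2 fold change was the highest of the 51 genes at 0.21 ± 0.11 (edgeR adjusted p = 0.195). RFC1 was called higher only without vehicle replicate 1, at a log2 fold change of 0.33. RFC2 and RFC3 lay lower in Spautin-1 without overlap, RFC2 at 37.2 and 35.5 CPM against 40.4 and 56.7 CPM in vehicle and RFC3 at 32.0 and 32.8 CPM against 43.3 and 39.6 CPM. They missed the threshold at -0.42 ± 0.16 and -0.36 ± 0.13 (edgeR adjusted p = 0.074 and 0.0601), and RFC3 was called in 7 and RFC2 in 4 of the 15 alternatives. RFC4 (-0.13 ± 0.12) and RFC5 (-0.06 ± 0.16) were called in none. The ratio of PCNA to RFC1 counts was 0.249 and 0.295 in Spautin-1 and 0.43 and 0.512 in vehicle. RFC1 was the only loader gene with a log2 fold change above 0, so this ratio does not stand for the other 4.

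Of the genes that process the lagging strand, FEN1 and LIG1 are in the set, and both were lower. FEN1 (chromosome 11, 61792911 to 61797238), the nuclease that trims the flaps of Okazaki fragments, was at 110.3 and 115 CPM in Spautin-1 and at 199 and 195 CPM in vehicle. It fell 1.75-fold with the smallest p of the 51 genes (-0.80 ± 0.10; edgeR adjusted p = 0.000239). LIG1, the ligase that seals the fragments, had 132 and 109.6 CPM in Spautin-1 and 162 and 162 CPM in vehicle. It fell 1.34-fold (edgeR adjusted p = 0.0201), a call lost without Spautin-1 replicate 1 (0.0628) or Spautin-1 replicate 2 (0.362). Outside the set, the nuclease gene DNA2 (-0.21) and the RNase H2 genes RNASEH2A (-0.06), RNASEH2B (0.31) and RNASEH2C (-0.46) were not called (edgeR adjusted p between 0.100 and 0.838). Of the single-strand binding complex RPA, none of the 3 genes was called by edgeR, DESeq2 or limma-voom. RPA1 and RPA2 were lower at an unadjusted p under 0.05, as were 17.3% of all genes tested. RPA1 was at 63.0 and 69.2 CPM in Spautin-1 and 81.3 and 83.1 CPM in vehicle, and RPA2 at 36.3 and 35.6 CPM in Spautin-1 and 43.9 and 48.0 CPM in vehicle. Both just missed the threshold (edgeR adjusted p = 0.0658 and 0.0591) and were called in 7 of 15 alternatives, among them the fits without either vehicle library. RPA3 had overlapping groups, 9.20 and 11.2 CPM in Spautin-1 and 12.4 and 10.1 CPM in vehicle (-0.14 ± 0.19).

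**Figure D4:**
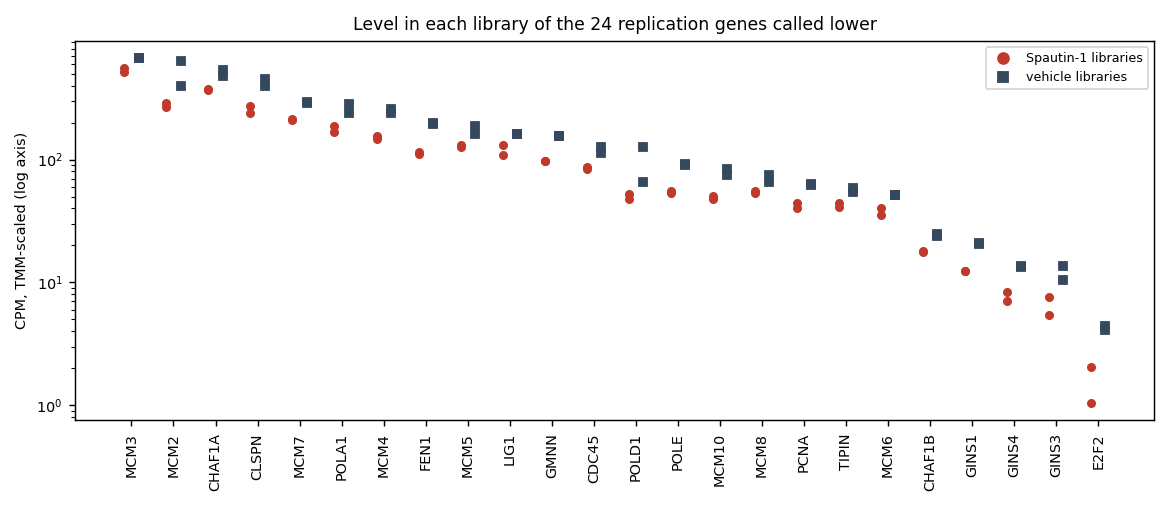
Level in CPM on a log axis in each library for the 24 replication genes called lower, ordered by their level in vehicle, with Spautin-1 libraries as red circles left of vehicle libraries as dark squares. In every gene both circles lie below both squares, which the call itself favours, and the squares of MCM2 and POLD1 are farthest apart among the abundant genes.

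Of the 4 fork protection genes, 2 were called lower. CLSPN (chromosome 1, 35720218 to 35769978) encodes claspin, which links the stalled fork to the checkpoint kinase CHEK1. It stood at 271 and 239.6 CPM in Spautin-1 and at 457 and 395 CPM in vehicle, and fell 1.67-fold (-0.74 ± 0.11; edgeR adjusted p = 0.000599). TIPIN, the partner of TIMELESS, shares 21.1% of its exonic bases with the gene RPL9P25 on the same strand. The total counts of TIPIN and RPL9P25 were 7206 and 26. TIPIN had 41.2 and 44.1 CPM in Spautin-1 and 58.5 and 54.5 CPM in vehicle. It fell 1.32-fold (edgeR adjusted p = 0.0311), a call lost without Spautin-1 replicate 1 (0.32) or Spautin-1 replicate 2 (0.204). TIMELESS itself was at 371 and 367 CPM in Spautin-1 and 349 and 329 CPM in vehicle, slightly above and without overlap, and did not pass (0.12 ± 0.09; edgeR adjusted p = 0.386). The ratio of TIMELESS to TIPIN counts was 9.01 and 8.32 in Spautin-1, against 5.97 and 6.04 in vehicle, and that of CLSPN to TIMELESS 0.732 and 0.654 in Spautin-1, against 1.31 and 1.20 in vehicle. WDHD1, which tethers polymerase alpha to the helicase, had overlapping groups (0.07 ± 0.11).

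Chromatin assembly behind the fork is the task of CAF-1, whose large and middle subunits are CHAF1A and CHAF1B. CHAF1A was at 371 and 377 CPM in Spautin-1 and at 475 and 532 CPM in vehicle, and fell 1.35-fold (-0.43 ± 0.10; edgeR adjusted p = 0.00749). CHAF1B had 18.0 and 17.6 CPM in Spautin-1 and 24.6 and 24.02 CPM in vehicle, and fell 1.37-fold (edgeR adjusted p = 0.0369). The ratio of their counts overlapped between groups, at 20.6 and 21.5 in Spautin-1 and 19.3 and 22.1 in vehicle. Both calls were lost without Spautin-1 replicate 1 (edgeR adjusted p of 0.116 and 0.238) and without Spautin-1 replicate 2 (0.108 and 0.291).

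Of the transcription factors, E2F2 showed the lowest log2 fold change of the set. It was at 2.05 and 1.04 CPM in Spautin-1 and at 4.06 and 4.43 CPM in vehicle, on 77 and 36 reads against 141 and 171, and fell 2.73-fold (-1.45 ± 0.33; edgeR adjusted p = 0.00873). The Spautin-1 libraries differed most here, and E2F2 ran from -2.02 without Spautin-1 replicate 1 to -1.04 without Spautin-1 replicate 2, where it was no longer called (0.093). E2F1 had 10.1 and 8.77 CPM in Spautin-1 and 10.9 and 12.3 CPM in vehicle and did not pass (-0.30 ± 0.17; edgeR adjusted p = 0.254). In the wider E2F and RB network outside the set, 10 of 19 genes were lower and 1 higher, with a median of -0.45. Over all genes tested, 10.5% were lower and 11.5% higher. CCNE2, a cyclin of S phase entry, fell 2.37-fold (8.21 and 7.85 CPM in Spautin-1, 19.4 and 18.6 CPM in vehicle), and the cell-cycle factor MYBL2 fell 1.61-fold. RBL2, the pocket protein p130 of resting cells, rose 1.53-fold with 23.0 and 22.3 CPM in Spautin-1 and 16.5 and 13.2 CPM in vehicle. In that network, fewer genes were called lower without Spautin-1 replicate 1 or without Spautin-1 replicate 2, as over all genes tested. The call of RBL2 was lost in both fits.

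Replication factors beyond the set behaved in part alike, with 11 of 29 lower, 1 higher and a median of -0.27. The shares over all genes tested were 10.5% lower and 11.5% higher. POLE3, a histone-fold subunit of polymerase epsilon, fell 2.02-fold, with 491 and 496 CPM in Spautin-1 and 999 and 993 CPM in vehicle (edgeR adjusted p = 1.02e-05). DSCC1, of the alternative clamp loader, fell 2.15-fold, with 15.7 and 14.5 CPM in Spautin-1 and 32.7 and 32.4 CPM in vehicle. POLD4, the small subunit of polymerase delta, rose 1.77-fold, with 11.0 and 11.2 CPM in Spautin-1 and 5.36 and 7.19 CPM in vehicle (edgeR adjusted p = 0.0112). Of these 29, fewer were called lower without Spautin-1 replicate 1 or without Spautin-1 replicate 2, as over all genes tested. The call of POLD4 was lost in both fits. Of 12 checkpoint genes, 2 were lower and 3 higher, where 10.5% of all genes tested were lower and 11.5% higher, so counts this small show nothing particular to the checkpoint genes. The phosphatase CDC25A fell 1.62-fold and the kinase PKMYT1 1.53-fold, while RAD9A, of the checkpoint clamp, rose 1.70-fold and the fork-remodelling enzyme SMARCAL1 1.61-fold. Fewer of the checkpoint genes were called in either direction without Spautin-1 replicate 1 or without Spautin-1 replicate 2. The calls of RAD9A and SMARCAL1 were lost in both fits. Of 15 markers of G2 and mitosis, 6 were lower and 0 higher by edgeR (8 and 0 at an unadjusted p under 0.05, 5 and 0 by DESeq2, 6 and 0 by limma-voom), with a median of -0.29. The shares lower and higher over all genes tested were 10.5% and 11.5% by edgeR, and 17.3% and 17.7% unadjusted. They were 9.97% and 10.6% by DESeq2, and 10.2% and 11.4% by limma-voom. Among the markers PLK1, a mitotic kinase, fell 2.16-fold and the spindle motor KIF11 1.63-fold. Fewer of the G2 and mitosis markers were called lower without Spautin-1 replicate 1 or without Spautin-1 replicate 2, as over all genes tested.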

How the data were processed

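The authors deposited raw counts of reads per gene, with exon coordinates and gene length, per the file headers. Per the submitters' processing notes, the build was GRCh38 and Trimmomatic 0.36, featureCounts (Subread 1.5.1) and edgeR 3.12.1 were used. The aligner, the annotation release and the strand setting were each not given in the sources used here. Libraries were stranded mRNA libraries, per the labels' protocols. MCM2 and GINS4, both called lower, share 23.6% and 21.0% of their exonic bases with a gene on the opposite strand. What the unknown strand setting means for their counts was not tested.

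The deposited counts were filtered in edgeR 4.0.16 (R 4.3.3) with filterByExpr (minimum count 10, minimum total 15) and scaled by TMM. The groups were compared by the quasi-likelihood F test, two-sided, adjusted over 18368 genes by Benjamini-Hochberg. The design has 2 residual degrees of freedom. CPM are TMM-scaled, and TPM use the deposited gene length. SE is the log2 fold change divided by the square root of F. DESeq2 1.42.0 and limma 3.58.1 were alternatives, and the offsets were loess fits per library (span 0.3). GC content came from the longest GENCODE transcript, found for 89.8% of genes tested. Replicates within a group differed beyond sampling noise, with a chi-square per degree of freedom of 8.33 in Spautin-1 and 27.6 in vehicle. Only the edgeR quasi-likelihood fit was run on simulated counts, keeping each gene with any simulated count. The other fits were not tested that way.

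The 51 genes, the companion lists and the classes were chosen with earlier results of these data known. All 51 may be named, and of each companion list the 2 called genes with the smallest p in each direction. Further genes of those lists are only counted, except ORC4, POLE4, DNA2, RNASEH2A, RNASEH2B and RNASEH2C, named after their values were seen.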

Additional observations from a re-analysis of the deposited data

How the results depend on the processing

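The 24 genes called lower kept that call under every other scaling, both other filters, limma-voom, the replicate block, the GC and length offsets, either vehicle library left out and (an alternative chosen after seeing the data) without mitochondrial genes; DESeq2 lost POLD1. Counts of replication genes called lower ran from 9 to 32 over the fits that leave out a library, and of those called higher from 0 to 1. Over the same fits, genes called over all genes tested ran from 1386 to 5870, companion replication factors lower from 4 to 12, checkpoint genes lower from 0 to 3, E2F and RB network genes lower from 3 to 12 and G2 and M markers lower from 2 to 8. With the GC offset, 4 checkpoint genes were lower. Fits without a Spautin-1 library leave 1 treated library, and the cause of the lower counts was not tested further. The replicate block gave 28 replication genes lower and 0 higher, and 5100 genes called over all genes tested. The replicate numbers share no stated culture or day, so the main fit did not pair the libraries. Replicate 1 deviations of both groups correlated at -0.0015 over 18368 genes, and this single correlation cannot exclude a shared culture or day.

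No replication gene called lower changed sign under these alternatives. Among uncalled genes, ORC3 was at -0.00788 with library size scaling, and ORC3 at -0.068, CDC7 at -0.040 and WDHD1 at -0.044 with the GC offset. Over the fits that leave out a library, ORC3 ran from -0.083 to 0.15, ORC5 from -0.14 to 0.10, CDT1 from -0.83 to 0.19, GINS2 from -0.27 to 0.15, PRIM2 from -0.30 to 0.026, RFC5 from -0.16 to 0.036 and RPA3 from -0.28 to 0.015. Over the 51 genes, GC content and the log2 ratio of vehicle replicate 2 to 1 had a Spearman correlation of 0.64, a description of genes that share 2 libraries. MCM2, POLD1 and CDT1, at 58.1%, 65.0% and 64.9% GC, gave -0.82, -0.78 and -0.25 with the GC offset.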
